A study of Mus musculus with 24 samples.

Results

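Arc, the gene for the activity-regulated cytoskeleton-associated protein, was followed through every library of a study of BDNF-treated mouse cortical neurons. It was picked by its symbol alone and is 1 gene of the 45792 in the count table, and it was among the 16777 genes that passed the filter on low counts. Messenger RNA had been sequenced from primary cortical neurons of E16.5 mouse embryos after 12 days in culture. The neurons were wild type (WT) or H2BE-KO/mCherry-KI (KO), in which the gene of the histone variant H2BE is knocked out and mCherry, a red fluorescent reporter, is knocked in. Each genotype had 3 conditions, an untreated control, BDNF for 30 min and BDNF for 24 h. The 6 groups had 4 libraries each. The question named by the study's title was whether H2BE takes part in activity-dependent gene expression.

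No promoter, Cre driver, strain or parent animal of either genotype is given in the labels. A code in the library descriptions is shared by the control, 30 min and 24 h libraries of a genotype and replicate number. What the code marks is not stated. It was taken here to mark 1 culture, numbered 1 to 4. The series calls the 4 libraries of a group biological replicates, but the labels tie no culture to an animal or litter. The p-values therefore measure the spread between the libraries of a group, each with another code. The main model, fitted to all genes, has no term for the culture and leaves that pairing out. Fits that add the culture are given as an alternative.

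Arc is an immediate early gene, transcribed within minutes of synaptic activity without the need for new protein synthesis. BDNF, a secreted neurotrophin, binds the receptor kinase TrkB and drives Arc transcription mainly through the ERK kinases and serum response factor. Arc mRNA is carried into dendrites and translated near synapses, where the protein helps to remove AMPA-type glutamate receptors from the membrane. The protein descends from a retrotransposon Gag protein and can assemble into capsid-like shells.

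In the mm10 assembly with GENCODE release M21, Arc (ENSMUSG00000022602.12) lies on the minus strand of chromosome 15 from 74669083 to 74672570. Its 3 exons cover 3057 bases, and no other annotated gene overlaps it. The whole coding sequence of 396 codons is in exon 1, from 74671185 to 74672372. Both introns, of 245 bases (74670320 to 74670564) and 186 bases (74669994 to 74670179), lie in the 3' untranslated region, an arrangement known to make Arc mRNA a substrate of nonsense-mediated decay.

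Library totals ran from 19780486 to 62135270 counts. The share of counts from mitochondrial genes was 4.18% to 6.40% in WT. It was 4.20% to 5.77% in KO cultures 1 and 2 and 7.52% to 9.34% in culture 3. KO culture 4 had 18.5% in control, 21.7% at 30 min and 10.9% at 24 h. Hist2h2be, the annotated gene of the H2BE variant, stood at 49.96 to 63.1 CPM (counts relative to the effective library size) in 11 KO libraries and at or under 5.83 CPM in WT, so its counts separate the genotypes without checking the deletion. In the library labelled KO 24 h replicate 4 it was intermediate, at 21.2 CPM, and that library also held female-expressed Xist (145 CPM) beside Y-linked Ddx3y (66.3 CPM). The control and 30 min libraries of KO culture 4 had Ddx3y at 0.193 and 0.904 CPM, so this 24 h library does not match the culture its code names. Within-culture values of KO culture 4 at 24 h, and fits with the culture as a block, take that code as given. KO 30 min replicate 4 also stood apart, in genes whose WT means rose at 24 h but not at 30 min. It held Serpinb2 at 7.59 CPM and Nptx2 at 239.5 CPM, beside group medians of 0.51 and 81.5 CPM. The highest KO 24 h values were 6.93 and 194 CPM. The cause was not tested. Markers of neurons in general summed to 5079 to 5948 CPM in all libraries, while those of microglia and endothelial cells were close to 0. The shallowest library was KO 30 min replicate 3. Most Arc comparisons that use it or KO culture 4 are also given without some or all of these libraries. Cell markers and most results on other genes are given only with them.

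Untreated neurons held little Arc mRNA. In WT control cultures 1 to 4 it stood at 4.69, 4.57, 3.37 and 6.87 CPM (mean 4.87 ± 1.46, SD, n = 4). In KO control cultures it stood at 9.11, 4.98, 5.78 and 4.04 CPM (5.98 ± 2.20, n = 4). The lowest raw count was 84, in KO control culture 4, with a 95% exact Poisson interval of 67.0 to 104.0 that covers counting error only. The genotypes overlapped here, and their difference on the log2 scale was 0.30 ± 0.36 (SE, adjusted p = 0.602, quasi-likelihood test of edgeR, adjusted by Benjamini-Hochberg over all genes), in a comparison that called 21.4% of all genes. That estimate went to -0.00427 without KO control replicate 1, the highest of the 4. Per kilobase of exon, Arc ranked between 8484 and 10854 among the tested genes in these 8 libraries, in the lower middle of the range.

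BDNF for 30 min brought Arc among the more abundant messages of WT neurons. The 4 libraries stood at 360, 269, 240 and 380 CPM (313 ± 68.1, n = 4), and all lay far above every control library. This ordering of the libraries was found for 1.96% of genes. The rise was 63.9-fold, or 6.0 ± 0.41 on the log2 scale (adjusted p = 1.28e-09, edgeR), the second largest of the 16777 genes. An adjusted p under 0.05 for a higher level was reached by 0.37% of genes. Per kilobase Arc now ranked between 233 and 504.

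KO neurons also raised Arc at 30 min, to a lower level. Their libraries stood at 141, 123, 87.5 and 60.4 CPM (103 ± 35.9, n = 4), again all above every KO control library, as 0.614% of genes were. The rise was 17.1-fold, or 4.09 ± 0.38 on the log2 scale (adjusted p = 1.32e-06, edgeR), where 0.125% of genes were called higher. Per kilobase Arc ranked between 960 and 2633. The library with the lowest value, culture 4, was also the one with 21.7% mitochondrial counts and with high Serpinb2 and Nptx2. With KO culture 4 and KO 30 min replicate 3 left out, the rise was 4.32 ± 0.28 (adjusted p = 1.86e-08, edgeR).

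After 24 h of BDNF Arc had come down from its 30 min level in WT but stayed above control. WT libraries stood at 63.6, 59.4, 62.0 and 39.7 CPM (56.2 ± 11.1, n = 4), and no library overlapped either the control or the 30 min group. Arc was 11.5-fold above control, a log2 change of 3.52 ± 0.37 (adjusted p = 9.08e-07, edgeR). At that time 9.55% of genes were called higher and 15.5% had all 4 libraries above control. Against 30 min it fell by 2.48 ± 0.34 on the log2 scale (adjusted p = 2.35e-05, edgeR), to 18% of that level. Of all genes, 8.18% were called lower in this comparison and 13.7% had all 4 libraries below.

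KO neurons at 24 h had 3 low libraries and 1 high one. Cultures 1 to 3 stood at 23.8, 19.4 and 18.5 CPM, and the library labelled replicate 4, the one with intermediate Hist2h2be, stood at 61.5 CPM (30.8 ± 20.6, n = 4). All 4 were above the KO controls, as 6.26% of genes were, and Arc was 5.11-fold higher (2.35 ± 0.35 on the log2 scale, adjusted p = 0.000466, edgeR). Here 2.91% of genes were called higher. Without the library labelled KO 24 h replicate 4 the log2 change was 1.77 ± 0.28 (adjusted p = 0.000677). Leaving out KO culture 4 and KO 30 min replicate 3 gave 1.65 ± 0.25 (adjusted p = 0.000348, edgeR in both).

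From 30 min to 24 h Arc fell in KO by 1.74 ± 0.34 on the log2 scale (adjusted p = 0.00665, edgeR), against a background of 1.37% of genes called lower. The 2 groups overlapped, because the library labelled KO 24 h replicate 4 at 61.5 CPM was above KO 30 min culture 4 at 60.4 CPM. Without that 24 h library Arc fell by 2.32 ± 0.29 (adjusted p = 0.000142, edgeR). Fitted on the 2 compared groups alone, the fall of 1.73 did not pass (adjusted p = 0.1305).

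**Figure D1:**
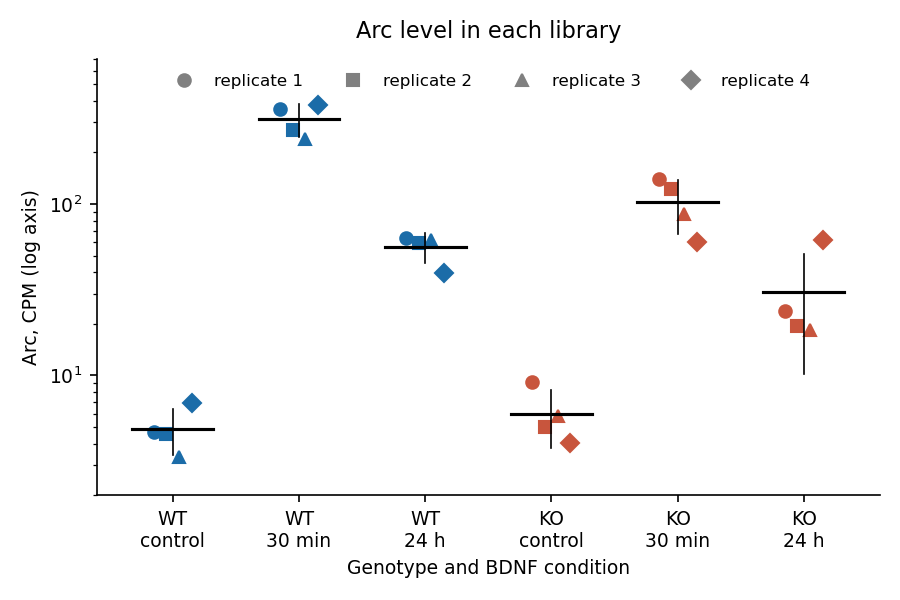
Arc mRNA in CPM on a log axis, for each of the 24 libraries in 6 groups of genotype and BDNF condition; each symbol is 1 library, horizontal lines are group means and vertical lines SD (n = 4). WT at 30 min stands highest (240 to 380 CPM), KO at 30 min is next (60.4 to 141 CPM), and 1 KO 24 h library stands at 61.5 CPM, apart from the other 3 at 18.5 to 23.8 CPM.

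The order of the group means was thus WT control, KO control, KO 24 h, WT 24 h, KO 30 min and WT 30 min. The plot of Arc levels by group shows 2 steps in this order where neighbouring groups did not overlap, from the controls to KO 24 h and from KO 30 min to WT 30 min. The other 3 neighbouring pairs overlapped. Of WT 24 h and KO 30 min, 3 WT libraries at 59.4 to 63.6 CPM lay near the lowest KO library at 60.4 CPM, and the other KO libraries lay above all of WT 24 h.

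At 30 min the genotypes separated completely. Every KO library, at 60.4 to 141 CPM, was below every WT library, at 240 to 380 CPM, which was so for 13.4% of genes. Arc stood at 33.0% of its WT level, 3.03-fold lower (-1.60 ± 0.33 on the log2 scale, adjusted p = 0.000981, edgeR), in a comparison where 13.8% of genes were called lower. With KO culture 4 and KO 30 min replicate 3 left out, the difference was -1.24 ± 0.25 (adjusted p = 0.00128, edgeR). A two-sided exact permutation test, with 70 ways to assign 4 of the 8 libraries, gave p = 0.0286 for a difference in mean log2 CPM of -1.65, the smallest p this design allows. Adjusted over the 5 permutation tests run on Arc, it was 0.0714 (Benjamini-Hochberg, exact permutation).

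At 24 h the genotype difference did not pass the test. KO stood at 54.9% of WT (-0.86 ± 0.33 on the log2 scale, adjusted p = 0.0851, edgeR), where 13.3% of genes were called. In the same libraries the exact permutation test gave p = 0.0857 (adjusted 0.143). The call turned on 1 library. Without the library labelled KO 24 h replicate 4 the other 3 KO libraries were all below WT, and the difference was -1.46 ± 0.28 (adjusted p = 0.000896, edgeR). Without KO culture 4 and KO 30 min replicate 3 it was -1.44 ± 0.23 (adjusted p = 8.46e-05, edgeR).

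Because each culture had its own control, the rise could be read within cultures. At 30 min Arc rose by 6.25, 5.87, 6.14 and 5.78 log2 units in WT cultures 1 to 4 (6.01 ± 0.22, SD, n = 4). In KO cultures 1 to 4 it rose by 3.94, 4.61, 3.91 and 3.88 (4.09 ± 0.35, n = 4). The ranges did not overlap, and all 3 KO cultures other than culture 2 lay within a narrow band. Culture 4, with its high mitochondrial share and high Serpinb2 and Nptx2 at 30 min, was among them.

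The mean rise at 30 min was lower in KO by 1.92 log2 units in these within-culture values (exact two-sided permutation p = 0.0286, adjusted 0.0714 over the 5 tests). The same question put to all genes, as a genotype by BDNF interaction, gave Arc a difference of -1.90 ± 0.48 (unadjusted p = 0.000679). It missed the threshold after adjustment (adjusted p = 0.456, edgeR), in a test that called 0.0477% of genes lower and none higher. Fitted with the culture as a block and leaving out KO culture 4 with KO 30 min replicate 3, the difference was -1.69 ± 0.30 and passed (adjusted p = 0.00952, edgeR). That fit was chosen after seeing the data. It was the only 1 of 26 alternatives to pass, and in the other 25 the interaction was not called.

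At 24 h the rises over control were 3.75, 3.69, 4.18 and 2.52 log2 units in WT (3.54 ± 0.71, n = 4). In KO they were 1.38, 1.95, 1.67 and 3.91 (2.23 ± 1.15, n = 4). KO cultures 1 to 3 were below every WT culture, while the library labelled replicate 4 was above 3 of the 4 WT cultures. The mean differed by -1.31 (exact two-sided permutation p = 0.114, adjusted 0.143). Without KO culture 4 it differed by -1.87 (exact p = 0.0571, the smallest possible with 4 against 3).

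Across all genes the interaction at 24 h was -1.17 ± 0.48 for Arc (adjusted p = 0.793, edgeR), where 0.0358% of genes were called and 0.0119% lower. Without KO culture 4 and KO 30 min replicate 3 it was -1.87 ± 0.33 and passed (adjusted p = 0.0134, edgeR). Leaving out these libraries was chosen after seeing the data. With and without the culture block it gave the only 2 passes among 26 alternatives.

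The part of the 30 min level still present at 24 h was 17.7%, 22.1%, 25.8% and 10.5% in WT cultures 1 to 4. In KO cultures 1 to 3 it was 16.9%, 15.8% and 21.1%, inside the WT range, and in culture 4, whose 24 h library does not match its other 2, it was 101.9%. The interaction between 30 min and 24 h was 0.74 ± 0.46 (adjusted p = 0.777, edgeR), where 0.209% of genes were called and 0.149% higher. Without KO culture 4 and KO 30 min replicate 3 its sign turned, to -0.20 ± 0.32 (adjusted p = 0.927, edgeR). In 7 of the 8 cultures Arc therefore came down to between 10.5% and 25.8% of its 30 min level.

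**Figure D2:**
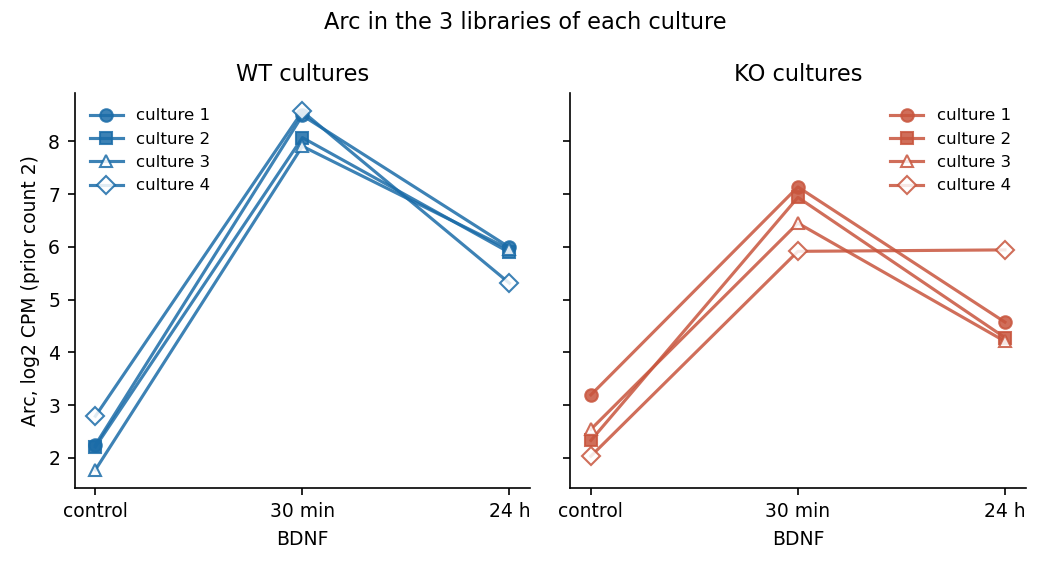
Arc in log2 CPM (prior count 2) for each culture in control, at 30 min and at 24 h, joined by lines, with WT cultures on the left and KO cultures on the right. The 4 WT lines rise and fall together, and 3 KO lines do so at a lower level at 30 min and 24 h, while the line of KO culture 4 stays level from 30 min to 24 h.

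The make-up of the cultures differed between the genotypes as well. Markers of excitatory neurons (Slc17a7, Slc17a6, Neurod6, Camk2a and Tbr1), the cells that express most Arc in cortex, summed to 1133, 1063, 1021 and 781 CPM in WT cultures 1 to 4 at 30 min and to 649, 528, 639 and 600 CPM in KO. In that comparison 4 of the 5 were called lower in KO, Tbr1 furthest at -1.77 ± 0.30 on the log2 scale, against 13.8% of all genes. Markers of inhibitory neurons (Gad1, Gad2, Slc32a1, Dlx1 and Lhx6) summed to 735, 637, 866 and 1717 CPM in WT and to 1930, 2276, 2150 and 1769 CPM in KO. Of these 4 of 5 were called higher, against 14.6% of all genes. Astrocyte markers, 4 of 6 called lower in KO at 30 min against the same 13.8%, summed to 31.0 to 85.4 CPM in WT and 11.05 to 28.3 CPM in KO, with none at 0.

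WT culture 4 had an inhibitory marker sum of 1717 CPM, close to that of KO culture 4 (1769 CPM). Its excitatory sum, 781 CPM, was the lowest of the WT cultures and above every KO culture, and its Arc level at 30 min was the highest of all 24 libraries. In the library labelled KO 24 h replicate 4, where Arc was high, the excitatory sum was 737 CPM against 407 to 538 CPM in the other 3 KO libraries, and the inhibitory sum was 1157 CPM against 2121 to 2658 CPM. The part of cell make-up in the Arc difference was not tested. In bulk RNA fewer cells of a type and less RNA per cell cannot be told apart.

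**Figure D3:**
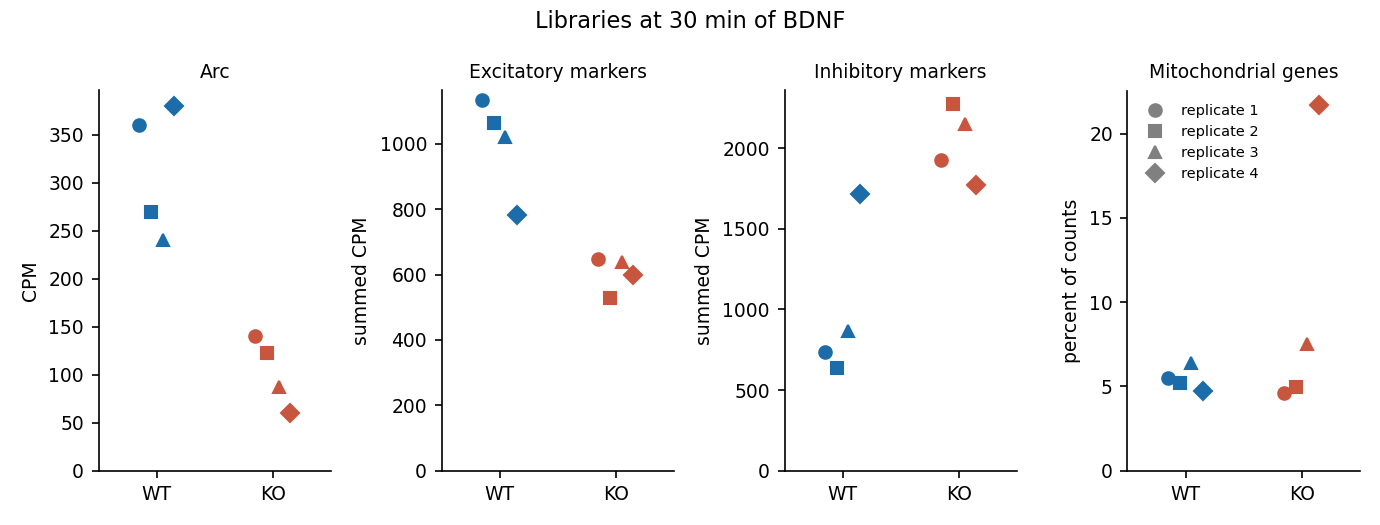
The 8 libraries at 30 min of BDNF by genotype, each symbol 1 replicate: Arc (CPM), summed excitatory and inhibitory neuron markers (CPM) and the share of counts from mitochondrial genes (percent). WT replicate 4, the diamond, has the highest Arc with an inhibitory sum near the KO values, and KO replicate 4 has the lowest Arc with the highest mitochondrial share.

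Genes whose levels followed Arc most closely were other immediate early genes. Over the 24 libraries, which share the 6 groups and therefore the BDNF response, log2 CPM of Egr2 correlated with that of Arc at 0.98 (Pearson), Egr1 at 0.98, Ier2 at 0.93, Jun at 0.91, Btg2 at 0.90, Egr4 at 0.90, Dusp6 at 0.90 and Gadd45g at 0.88. These were the highest of 12079 genes compared, whose median was -0.01. The same 8 genes led by Spearman's rank correlation and with DESeq2's size factors. Egr1, Egr2 and Egr4 encode zinc finger transcription factors, Jun a subunit of AP-1, Btg2 an antiproliferative cofactor, and Dusp6 a phosphatase that switches off ERK. Among them 7 belong to the rapid genes described next, and Dusp6 does not.

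Egr2 had the highest Pearson correlation with Arc, while Btg2 led by Spearman's (0.980 against 0.978 for Egr2). Egr2 went from 2.22 ± 1.20 CPM in WT control to 187 ± 52.2 at 30 min and 23.1 ± 8.08 at 24 h, and in KO from 2.92 ± 0.42 to 40.0 ± 16.2 and 12.1 ± 5.19 CPM (n = 4 each). Egr1 was more abundant, at 35.0 ± 10.9, 1175 ± 35.9 and 160 ± 33.1 CPM in WT and 24.9 ± 4.03, 463 ± 173 and 92.7 ± 63.5 CPM in KO. Per kilobase, WT neurons at 30 min held Arc at 102 CPM per kb, Egr1 at 262, Btg2 at 138, Ier2 at 101 and Egr2 at 55.1.

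Within the groups, the genes that deviated from their group means together with Arc were Egr1 (0.87), Btg2 (0.86), Cpne4 (0.84), Ccser1 (0.83) and Arhgef28 (0.81). Cpne4, Ccser1 and Arhgef28 were not called at 30 min in either genotype and were lower in KO in all 3 conditions, Cpne4 by 2.15, 2.13 and 1.62 log2 units. The likeness was lower with 1 library left out. Without the library labelled KO 24 h replicate 4 the 5 correlations were 0.77, 0.75, 0.70, 0.70 and 0.70, and Srgap3 (0.86) and Ripor2 (0.85) led instead.

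Arc was set beside 47 other rapid activity-regulated genes. In WT at 30 min 29 of them were called higher and none lower, against 0.37% of all genes called higher. Their median log2 change was 1.40, while the median of all genes was 0.00. Only Egr2 (6.38 ± 0.41) exceeded Arc, and Fosb, another AP-1 subunit, came next at 5.94 ± 0.36. In KO 14 were called higher and none lower, against 0.125% of all genes called higher. Their median was 0.59, and Egr1 (4.22 ± 0.37) exceeded Arc. Npas4, a transcription factor specific to neuronal activity, rose by 4.34 ± 0.51 in WT and 2.33 ± 0.47 in KO, and Fos by 3.97 ± 0.34 and 1.91 ± 0.31.

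At 24 h the list spread out and Arc stood at its top. In WT 23 members were called higher and 1 lower (Arl4d), with a median of 0.72, where 9.55% of all genes were called higher and 9.13% lower. None reached the Arc change of 3.52, with Egr2 at 3.36 ± 0.36 and Atf3, a stress-responsive factor, at 2.86 ± 0.23 below it. In KO 11 were called higher and again only Arl4d lower, against 2.91% of all genes higher and 2.70% lower. No member reached the Arc change of 2.35. Fitted with the culture as a block, the KO counts were 21 higher and 1 lower. The share of all genes called by that fit is not given, so its counts on this and later lists have no background beside them.

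Several members did not share the sustained level of Arc. Egr3 stood at -0.30 and Npas4 at 0.15 log2 units from control at 24 h in WT, and neither was called. Of the 47, 25 were called lower at 24 h than at 30 min in WT and 2 higher, Atf3 (0.83 ± 0.22) and Gem (1.72 ± 0.33). The shares of all genes were 8.18% called lower and 7.91% higher. In KO 15 members were called lower, against 1.37% of all genes, and none higher. With the culture as a block 6 were called higher in WT and 2 in KO. Of the WT changes from 30 min to 24 h, 12 members fell further than Arc, among them Fosb (-4.36 ± 0.33) and Egr3 (-4.30 ± 0.36).

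Between the genotypes at 30 min 25 of the 47 were called lower in KO and 2 higher (Gem and Trib1), against 13.8% and 14.6% of all genes. The median of the 47 was -0.57. Klf4 (-3.00 ± 0.65), Egr3 (-2.35 ± 0.33) and Egr2 (-2.22 ± 0.33) were among the 9 that stood further below WT than Arc. In control cultures the direction was the opposite, with 17 called higher in KO and 1 lower (Ccn2), against 11.3% of all genes higher and 10.1% lower. Fosb stood higher there by 2.30 ± 0.32 and Fos by 1.23 ± 0.30, while Arc, at 0.30 ± 0.36, was not called. At 24 h 5 were called higher, Fos, Fosb, Fosl2, Npas4 and Trib1, and 2 lower, Jun and Klf10, where 7.09% and 6.16% of all genes were called in those directions.

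The difference of the 30 min response was negative in 44 of the 47, with a median of -0.77 beside -0.01 for all genes. It was called in 4, where 0.0477% of all genes were called lower. These were Fosb (-3.36 ± 0.43), Egr2 (-2.61 ± 0.49), Gadd45b (-2.38 ± 0.36) and Arl4d (-1.46 ± 0.23). With the culture as a block it was called in 16. Arc at -1.90 was lower than 36 of the members. At 24 h only Atf3 was called (-1.79 ± 0.31), where 0.0119% of all genes were called lower, and 5 members were with the block. These differences share their control libraries with the responses above.

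**Figure D4:**
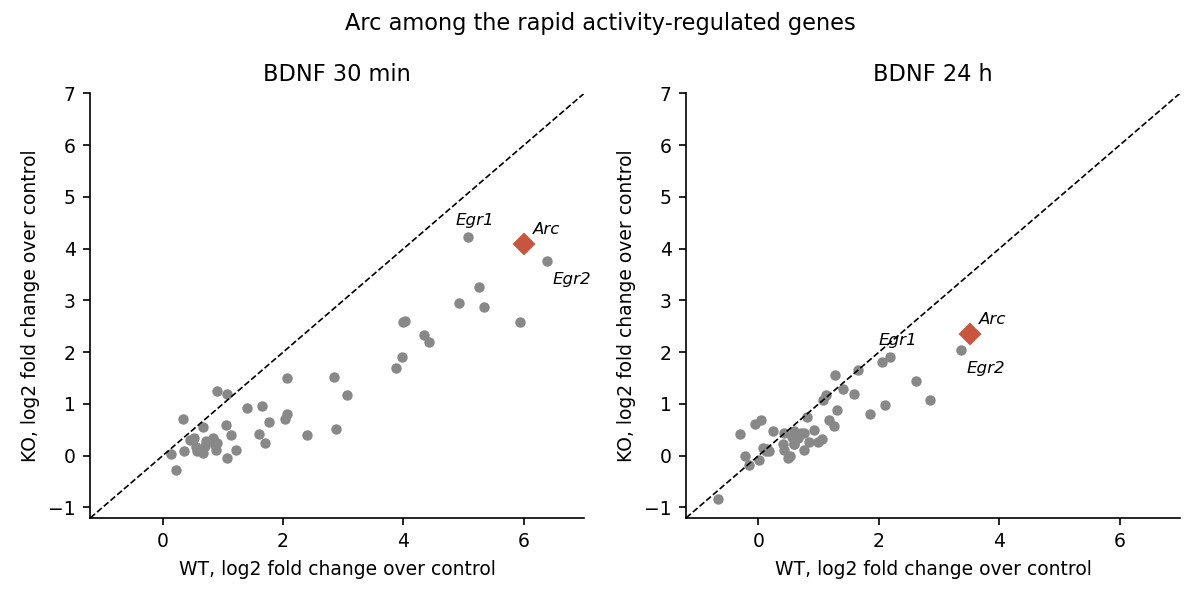
Log2 fold change over control in WT (horizontal axis) and in KO (vertical axis) of Arc, the diamond, and 47 other rapid activity-regulated genes, at 30 min and 24 h of BDNF; the dashed line marks equal change. At 30 min Arc lies at 6.0 in WT and 4.09 in KO, next to Egr2 and Egr1, and at 24 h no other gene of the list lies further along either axis.

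The slower effector genes, whose proteins act at synapses or as secreted signals, moved on another schedule. Of 18, only Plk2, a kinase of dendritic spines, was called higher at 30 min in WT (0.74 ± 0.08) and in KO (0.53 ± 0.08). The shares of all genes called higher were 0.37% and 0.125%. At 24 h 12 of the 18 were called higher in WT and 7 in KO, against 9.55% and 2.91% of all genes. None was called lower, and the medians were 0.87 and 0.42. With the culture as a block 16 were called higher and 1 lower in WT, and 10 higher in KO, with no share of all genes given for that fit. Nptx2, a secreted pentraxin that gathers AMPA receptors, went from 17.6 ± 3.46 CPM in WT control to 18.1 ± 3.45 at 30 min and 109 ± 32.4 at 24 h. Homer1, a scaffold of the postsynaptic density, rose by 1.05 ± 0.13 in WT and 0.61 ± 0.13 in KO at 24 h. Unlike Arc, 8 of the 18 effector genes were already called higher in KO control cultures, against 11.3% of all genes. Among them were Bdnf (2.01 ± 0.31), Ptgs2, the inducible cyclooxygenase (4.63 ± 0.56), and Nptx2 (1.94 ± 0.33).

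Messages for known regulators of the Arc gene changed little as Arc rose. Of 30, only Srf, which binds the Arc enhancer, was called at 30 min in WT (0.71 ± 0.13, adjusted p = 0.00386, edgeR), and none in KO, where Srf stood at 0.20 ± 0.13. The shares of all genes called higher at that time were 0.37% in WT and 0.125% in KO. Srf went from 34.5 ± 2.64 to 56.3 ± 4.50 CPM in WT. At 24 h in WT, where 9.55% of all genes were called higher and 9.13% lower, Elk3, a ternary complex factor, was called higher (1.73 ± 0.37). Mapk3, which encodes an ERK kinase, fell by 0.62 ± 0.08, Rps6ka5, a kinase downstream of ERK, by 1.03 ± 0.23, and Nelfcd, a subunit of a polymerase pausing factor, by 0.40 ± 0.11. In KO at 24 h Elk3 rose by 1.89 ± 0.37 and Mapk3 and Rps6ka5 fell by 0.35 ± 0.08 and 1.04 ± 0.24. There 2.91% of all genes were called higher and 2.70% lower. With the culture as a block the WT calls at 24 h went from 1 higher and 4 lower to 4 higher and 7 lower. At 30 min Srf stood 0.72 ± 0.13 lower in KO than in WT (adjusted p = 0.000227, edgeR). In this comparison 5 of the 30 regulators were called lower, Srf, Crtc1, Elk1, Mef2a and Top2b, and 4 higher, Elk3, Hdac4, Hdac5 and Nelfe. These are shares near those of all genes, 13.8% lower and 14.6% higher. Elk3 varied widely between the KO libraries at 30 min, from 1.30 to 7.52 CPM (4.03 ± 2.89, n = 4). Its difference without KO 30 min replicates 3 and 4 is not given.

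Of 26 genes for the transport, translation and decay of Arc mRNA none was called at 30 min in either genotype. With 0.37% of all genes called higher in WT and 0.125% in KO, finding none was near the background. In WT at 24 h 3 were called higher and 3 lower, near the 9.55% and 9.13% of all genes. Kif5b, a kinesin heavy chain, and Eif4e, the cap-binding protein, were among those called higher, by 0.40 ± 0.11 and 0.26 ± 0.08. Eef2k, the kinase of elongation factor eEF2, Kif5a and Kif5c were called lower, at -0.70 ± 0.11, -0.31 ± 0.08 and -0.28 ± 0.06. In KO only Kif5c was called at 24 h (-0.25 ± 0.06), against 2.91% of all genes higher and 2.70% lower. With the culture as a block 1 gene was called higher and 1 lower. Eef2k was lower in KO than in WT in control cultures (-0.72 ± 0.11) and at 30 min (-0.81 ± 0.11).

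None of the 28 partners and targets of the Arc protein was called at 30 min in either genotype. That was near the background, 0.37% of all genes called higher in WT and 0.125% in KO. In WT at 24 h 6 fell, Camk2a by 0.89 ± 0.14, Dnm3 by 0.68 ± 0.18, Camk2b by 0.54 ± 0.12, Amph and Wasf1 by 0.53 ± 0.14 each, and Sh3gl2 by 0.48 ± 0.11. Camk2a and Camk2b encode subunits of CaMKII, which binds Arc, and dynamins and endophilins act with Arc in endocytosis. Gria3, an AMPA receptor subunit, Dlg4, which encodes the scaffold PSD-95, and Cltc, the clathrin heavy chain, rose by 0.41 ± 0.13, 0.40 ± 0.08 and 0.35 ± 0.11. Of all genes 9.13% were called lower and 9.55% higher, so the 3 higher ones were near that share. In KO at 24 h Camk2a fell by 0.72 ± 0.14 and Picalm, a clathrin adaptor, rose by 0.34 ± 0.09. These single calls of the 28 stood beside 2.70% of all genes called lower and 2.91% higher. With the culture as a block 6 were called higher and 9 lower in WT at 24 h, and 5 higher and 6 lower in KO.

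The AMPA receptor subunits differed by genotype in both directions. At 30 min Gria1 and Gria4 stood higher in KO (0.70 ± 0.23 and 0.65 ± 0.20) and Gria2 and Gria3 lower (-0.39 ± 0.09 and -0.51 ± 0.13). All 4 were called in the same directions in control cultures and at 24 h. Over the 28 partners, 5 were called higher and 11 lower at 30 min, against 14.6% and 13.8% of all genes, so the count of higher ones was near the background. The marker sums given above also differed between the genotypes, and Camk2a is both an excitatory marker and a member of this list. How these genes relate to the sums was not tested.

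Of 12 genes for the turnover of the Arc protein, none was called at 30 min in either genotype. This too was near the background, 0.37% of all genes called higher in WT and 0.125% in KO. In WT at 24 h Zdhhc5, a palmitoyl transferase, rose by 0.54 ± 0.11, and Palm and Uchl1, a ubiquitin hydrolase, fell by 0.63 ± 0.12 and 0.54 ± 0.08. Among all genes 9.55% were called higher and 9.13% lower. In KO at 24 h Palm and Uchl1 fell by 0.43 ± 0.12 and 0.31 ± 0.08, where 2.70% of all genes were called lower. Ube3a, a ubiquitin ligase, was lower in KO at 30 min (-0.41 ± 0.15) and at 24 h (-0.48 ± 0.15).

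Of 21 other tested genes that descend from Gag, none was called at 30 min in either genotype. With 0.37% of all genes called higher in WT and 0.125% in KO, finding none was near the background. At 24 h Peg10 rose in both, from 42.6 ± 7.67 to 184 ± 23.8 CPM in WT (2.11 ± 0.21, adjusted p = 5.05e-07) and from 91.0 ± 19.8 to 209 ± 48.3 CPM in KO (1.20 ± 0.21, adjusted p = 0.00131, edgeR in both). Peg10 is an imprinted gene whose protein also forms capsids. It stood higher in KO control cultures by 1.09 ± 0.21. Pnmal2, Zcchc18 and Pnma2 fell in WT at 24 h by 0.90 ± 0.22, 0.35 ± 0.12 and 0.32 ± 0.10, and in KO Zcchc18 and Rtl8c fell by 0.51 ± 0.12 and 0.42 ± 0.12. The shares of all genes called at 24 h were 9.55% higher and 9.13% lower in WT, and 2.91% and 2.70% in KO. With the culture as a block 2 were called higher and 8 lower in WT.

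Of 17 protein-coding genes within 250 kb of Arc on chromosome 15, 4 passed the filter. None was called at 30 min in either genotype, where 0.37% of all genes in WT and 0.125% in KO were called higher. They were Jrk (29730 bases away), Them6 (48633 bases), Lynx1 (75281 bases) and Adgrb1 (79617 bases). Jrk, the nearest of them, changed by -0.30 ± 0.18 in WT and 0.05 ± 0.18 in KO at 30 min. Adgrb1, an adhesion receptor, fell in WT at 24 h by 0.41 ± 0.14 (adjusted p = 0.0497, edgeR), where 9.13% of all genes were called lower. Lynx1, a modulator of nicotinic receptors, was higher in KO by 1.28, 1.47 and 1.22 ± 0.26 in the control, 30 min and 24 h groups, and Them6 by 0.63, 1.05 and 0.60 ± 0.19. The shares of all genes called higher in KO in these comparisons were 11.3%, 14.6% and 7.09%.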

How the data were processed

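The authors deposited whole-number counts of reads per gene for 24 libraries of polyadenylated RNA, made with a stranded TruSeq kit per the labels' protocols. STAR 2.7.9a, DESeq2 1.38.3, limma 3.54.2, edgeR 3.40.2 and mm10 are named per the submitters' processing notes. Not given in the sources used here are the counting program, its annotation and its strand setting. Reads from the opposite strand of Arc could therefore not be separated. Symbols came from GENCODE M21 by identifier for 45229 of 45792 genes (98.8%), and the unnamed genes held 0.0662% of the counts.

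edgeR 4.0.16 in R 4.3.3 fitted 1 quasi-likelihood model of 6 group means to all libraries, with filterByExpr (minimum count 10, minimum total 15, 16777 genes kept), TMM factors (0.824 to 1.07), 18 residual degrees of freedom and Benjamini-Hochberg adjustment over all genes. Genes with an adjusted p under 0.05 are called. Contrasts were written with limma 3.58.1. SE is the log2 change over the square root of the F statistic. CPM uses TMM-scaled totals, log2 CPM a prior count of 2, and CPM per kb the summed exon length. Rises per culture and levels were compared by exact permutation. No libraries matched within sampling noise. The model was tested on simulated data.

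Libraries of a culture code deviated together within a genotype (correlations of 0.0464 to 0.462, over 0.1 in 22 of 24 pairs), so the code was taken to pair them, except that Ddx3y sets the library labelled KO 24 h replicate 4 apart from its culture, while between genotypes only a number is shared. Alternatives were DESeq2 1.42.0, DESeq2's size factors, no filter, no mitochondrial genes, the compared groups alone, the culture block, a library set, and single libraries left out. The set was read from a number in the descriptions of the control libraries and extended to their cultures. What that number marks is not stated. Of the KO cultures only culture 1 lay outside set 2. Fits without the libraries that stand apart were chosen after seeing the data.

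Arc, the gene lists, the neighbour window and the tests were chosen with earlier results of these data known. Named genes are Arc, the 8 genes most like it in level (mean of at least 1 CPM) and 5 in deviation, at most 4 genes a list, those with the largest called WT change, and the neighbours. Other genes behind a short count, or given as examples of a list, were chosen after their values were seen. Some members of the lists are not reported here by name.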

Additional observations from a re-analysis of the deposited data

Results flagged for a closer look

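Arc stood apart in 1 library or culture of KO in 3 measures, judged by the gap to the nearest value as a share of the group's whole range (Dixon's 95% limit for 4 values). Chance alone flags about 1 in 20 such groups. At 24 h the library labelled KO 24 h replicate 4, at 61.5 CPM, had a gap of 0.877 of the range to the other 3. The change from 30 min to 24 h in KO had a gap of 0.844, again from culture 4, at 0.03 log2 units against -2.66 to -2.24. The rise at 30 min in KO had a gap of 0.919, from culture 2 at 4.61 against 3.88 to 3.94. That library at 24 h also stood apart in Hist2h2be (21.2 CPM) and, from the other 2 libraries of its culture, in Ddx3y (66.3 CPM), and its part in the first 2 gaps was not tested beyond leaving it out.

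In the rapid genes around Arc, the genotype difference of the response to BDNF passed the test (edgeR, KO minus WT, log2 units) at 30 min for Fosb (-3.36), Egr2 (-2.61), Gadd45b (-2.38) and Arl4d (-1.46), and at 24 h for Atf3 (-1.79). The shares of all genes called lower were 0.0477% at 30 min and 0.0119% at 24 h. The change from 30 min to 24 h was less negative in KO for Fosb (2.98), Egr4 (2.48), Nr4a1 (2.21), Gadd45b (2.05), Btg2 (1.91) and Arl4d (1.29), where 0.149% of genes were called in that direction. With the culture as a block 14 rapid genes passed in that direction and 1 in the other. Arc passed in none of the 3 tests over all libraries.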

How the results depend on the processing

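The rises of Arc over control and its fall from 30 min to 24 h in WT kept their direction and passed under all 18 alternatives each, as did its lower level in KO at 30 min under all 16. With single libraries left out the log2 change was 5.86 to 6.21 (WT 30 min), 3.38 to 3.74 (WT 24 h), -2.58 to -2.33 (WT 24 h against 30 min), 3.89 to 4.38 (KO 30 min), 1.77 to 2.64 (KO 24 h), -2.32 to -1.55 (KO 24 h against 30 min), -0.00427 to 0.52, -1.81 to -1.43 and -1.46 to -0.70 (KO against WT in control, at 30 min and at 24 h), and -2.12 to -1.61, -1.75 to -0.88 and 0.15 to 0.93 (differences of the 30 min response, the 24 h response and the change between them). The KO fall from 30 min to 24 h did not pass on the compared groups alone (-1.73) or in library set 2 alone (-1.43), which has fewer samples. That set turned the control difference to -0.074, and leaving out KO control replicate 1 turned it to -0.00427. KO against WT at 24 h passed without KO 24 h replicate 4 (-1.46) and on leaving out KO culture 4 with KO 30 min replicate 3 (-1.44). Leaving out the latter libraries also let the 24 h interaction pass (-1.87, and -1.85 with the culture block) and the 30 min interaction with the block (-1.69), and turned the interaction between the times to -0.20 (-0.16 with the block). The culture block alone gave interactions of -1.88, -1.26 and 0.62 and changed no Arc call, while its effect on counts over gene lists stands beside them. Those block counts are given without the share of all genes called by the block fit, so they cannot be read against a background. Comparisons between genotypes at 1 time have no block, since their cultures share only a number.

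The permutation tests at 30 min lost p = 0.0286 with fewer samples. The rise differed by -1.82 and the level by -1.80 in set 2 alone (exact p = 0.2), and by -1.73 and -1.22 without KO cultures 3 and 4 (exact p = 0.133). With 1 culture left out they were -2.10 to -1.84 and -1.83 to -1.42, each at p = 0.0571, the smallest exact p possible. The interaction of the 30 min response, called for 4 rapid genes, was called for 13 by DESeq2, 16 with the block, 9 without KO 30 min replicate 2, 22 with the block and without the libraries named above, and 0 in set 2 alone. At 24 h the call for Atf3 became 0 in set 2 alone and 0 to 2 with single libraries left out. It became 5 with the block, 4 without the libraries named above, 17 with both, and 2 by DESeq2. In set 2 alone the rapid genes called over control were 19 and 7 in WT and 9 and 0 in KO at 30 min and 24 h. The cause of these shifts was not tested, and the shares of all genes called under these settings are not given. The lowest Arc count of 84 limits the control groups, and 4 libraries a group limit the interactions.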
